A study of Homo sapiens with 2 samples.

Results

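Autophagy delivers cytoplasmic material to the lysosome inside a double-membrane vesicle, the autophagosome. The ULK kinase complex starts the process, a class III PI3-kinase marks the growing membrane with a phosphoinositide, and a ubiquitin-like conjugation pathway attaches proteins of the ATG8 family to that membrane, where cargo receptors such as SQSTM1 bind them. TFEB, TFE3 and MITF are related transcription factors that switch on lysosomal and autophagy genes when the kinase mTORC1 at the lysosome, reached through the Rag GTPases and folliculin, is inactive. In macrophages the same machinery also clears engulfed and damaged material.

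The genes described here are 43 named components of this machinery and of the TFEB family, chosen by symbol from a table of 46865 loci, and each of the 43 symbols had exactly 1 row. They were sorted by their known roles into 8 groups. The cells came from 1231A3, a wild-type line of human induced pluripotent stem cells, which was turned over 30 days into primitive macrophages, an embryonic kind of macrophage used as a model of microglia. The Control library came from such macrophages with no agonist in its labels, and no vehicle is stated. The PNU282987 library came from macrophages given 100 µM PNU282987, which fully activates the α7 nicotinic acetylcholine receptor, for 12 hours; its treatment field names amyloid β instead, against its title and the protocol. There was 1 library per group from 1 line, so the differences below have no replicate check and no p-value. Each interval is a 95% interval of counting error only, and it would be too narrow if a sequenced fragment was counted as 2 reads.

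The libraries held 39316475 reads (Control) and 36134391 reads (PNU282987). All 10 macrophage markers examined, among them SPI1, CSF1R and CD68, had a mean of at least 148 CPM, that is, reads scaled to a common library size. Of the 7 pluripotent stem cell markers 5 had reads, and the list summed to 4.90 CPM in Control against 4.44 CPM in PNU282987, most of it DNMT3B at 4.67 and 4.0 CPM. POU5F1 and PRDM14 of that list had 0 reads in both libraries, as did HBB and HBG1 of the erythroid list and CD3E and MS4A1 of the lymphoid list. Other marker lists were present and stood at different summed levels in the libraries, at 2678 and 3024 CPM for all 6 fibroblast and mesenchymal markers, 693 and 476 CPM for all 5 granulocyte markers and 164 and 81.3 CPM for the lymphoid list in Control and PNU282987. The macrophage markers summed to 7095 and 6021 CPM, but did not all differ in the same direction. Of the 10, 8 had a ratio of PNU282987 to Control under 1, against 50.8% of all loci. MRC1 was higher in PNU282987, at 331 and 553 CPM, and CD163 slightly so, at 1055 and 1088 CPM. The part of these other cells in the values below was not tested, and in a bulk library fewer cells of a type and less RNA per cell cannot be told apart.

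All 43 genes were expressed in both libraries, and the differences between the libraries were small for most of them. None reached a 2-fold difference, against 5.77% of the 14269 loci whose mean was 1 CPM or more and 3.30% of the 9746 loci at 10 CPM or more. A difference of at least 1.5-fold with a counting interval that left out equality was found for 3 of the 43 genes (6.98%), against 17.4% of all loci and 12.5% of those at 10 CPM or more. The 3 genes were OPTN, MAP1LC3A and SQSTM1, and each was lower in the PNU282987 library, as were 8.66% of all loci and 5.55% of those at 10 CPM or more. Most of the 43 genes, 33 or 76.7%, lay within 1.25-fold, compared with 64.8% of the loci at 10 CPM or more. The median log2 ratio of PNU282987 to Control was -0.11 over the 43 genes and -0.01 over all loci, and 28 of the 43 had a ratio under 1, or 65.1% against 50.8% of all loci and 49.4% of those at 10 CPM or more. The counting interval lay wholly below equality for 22 genes and wholly above it for 11. The corresponding shares were 51.2% and 25.6% of the 43 genes, 33.6% and 33.5% of all loci, and 37.0% and 39.3% of the loci at 10 CPM or more.

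**Figure D1:**
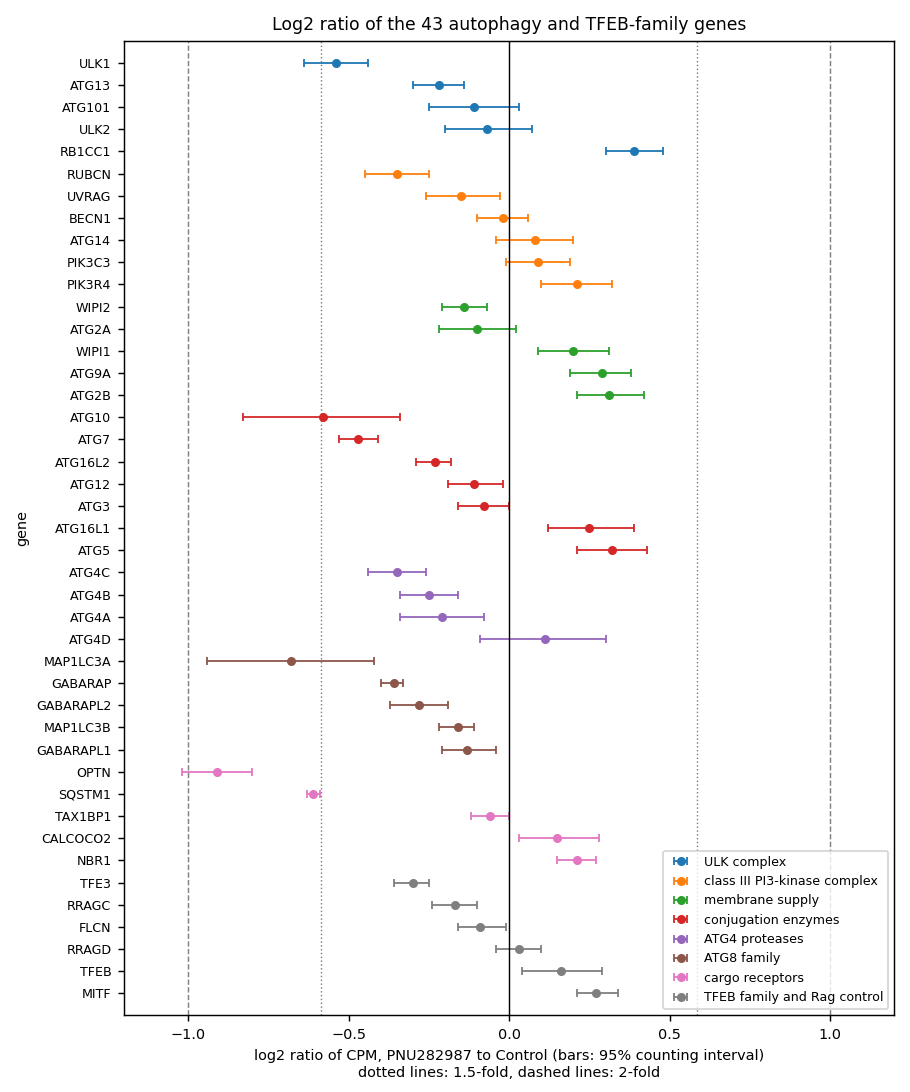
Log2 ratio of PNU282987 to Control for each of the 43 genes, coloured by role, with bars for the 95% counting interval and 1 library per group. OPTN, at -0.91, lies nearest to the dashed 2-fold line, all 5 ATG8 family genes lie below 0, and RB1CC1 has the highest ratio at 0.39.

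Among the cargo receptors SQSTM1 and OPTN were lower in the PNU282987 library by more than 1.5-fold, and OPTN had the lowest ratio of the 43 genes. SQSTM1 (chromosome 5, 179806393 to 179838078, GRCh38), the p62 protein that links ubiquitinated cargo to the ATG8 family, had 45044 reads in Control against 27628 in PNU282987, or 1156 CPM (95% Poisson limits 1145 to 1167) and 758 CPM (749 to 767). It was 1.53-fold lower in the PNU282987 library, for a log2 ratio of -0.61 (-0.63 to -0.59). That ratio lies close to the 1.5-fold limit, and with scaling by library totals SQSTM1 no longer passed it. OPTN (chromosome 10, 13100082 to 13138308), optineurin, a receptor for ubiquitinated mitochondria and bacteria, had 1905 and 948 reads, or 48.9 CPM (46.7 to 51.1) and 26.0 CPM (24.4 to 27.7). It was 1.88-fold lower, with a log2 ratio of -0.91 (-1.02 to -0.80), and 3.60% of all compared loci had a lower ratio.

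The remaining cargo receptors did not share the difference of SQSTM1 and OPTN. NBR1, a receptor that acts beside SQSTM1, had 111 CPM in Control against 129 CPM in PNU282987, for a log2 ratio of 0.21 (0.15 to 0.27). CALCOCO2, also called NDP52, a receptor for invading bacteria, had 25.1 and 27.9 CPM, and TAX1BP1, its relative, 125 and 120 CPM. The intervals of these 3 genes lay above those of SQSTM1 and OPTN without overlap. SQSTM1 made up 78.8% of all cargo receptor reads in Control (Clopper-Pearson interval 78.5 to 79.1) and 71.4% in PNU282987 (71.0 to 71.9). The share of NBR1 was 7.60% in Control against 12.2% in PNU282987, and that of OPTN 3.33% and 2.45%. SQSTM1 shares its span with MGAT4B, which stood lower too at 187 and 128 CPM, and with MRNIP; with their reads added the log2 ratio of SQSTM1 was -0.60.

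The ATG8 family, the ubiquitin-like proteins that are joined to the autophagosome membrane, was the only role group in which every member had an interval wholly below equality, as did 33.6% of all loci. After removal of a linear trend of the ratios over GC content and transcript length, the interval of GABARAPL1 included equality (-0.15 to 0.02) and the other 4 remained below it. GABARAP (chromosome 17, 7240008 to 7242449), its most abundant member here, had 13991 reads in Control against 10182 in PNU282987, or 359 CPM (353 to 365) and 279 CPM (274 to 285), for a log2 ratio of -0.36 (-0.40 to -0.33). GABARAPL2, also called GATE-16, had 57.1 and 47.1 CPM and a log2 ratio of -0.28 (-0.37 to -0.19). MAP1LC3B, the LC3B protein used as the standard marker of autophagosomes, had 134 and 120 CPM and a log2 ratio of -0.16 (-0.22 to -0.11). GABARAPL1 had 60.5 and 55.4 CPM, for a log2 ratio of -0.13 (-0.21 to -0.04).

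MAP1LC3A (chromosome 20, 34546844 to 34560345), encoding LC3A, was the least expressed member of the family and the only one past 1.5-fold. It had 344 reads in Control against 201 in PNU282987, or 8.83 CPM (7.92 to 9.81) and 5.51 CPM (4.78 to 6.33), and was 1.60-fold lower, for a log2 ratio of -0.68 (-0.94 to -0.42). Its interval overlapped that of no other ATG8 family gene, but did so after removal of the trend, at -0.64 to -0.13. The make-up of the family was similar in both libraries: per kilobase of transcript GABARAP made up 60.5% in Control against 58.1% in PNU282987, GABARAPL2 15.7% and 16.0%, and MAP1LC3B 13.7% and 15.1%. MAP1LC3B2, a near-identical copy among whose reads some may belong to MAP1LC3B, had 54 and 49 reads. GABARAPL3, a pseudogene copy of GABARAPL1, had 0 reads in both.

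**Figure D2:**
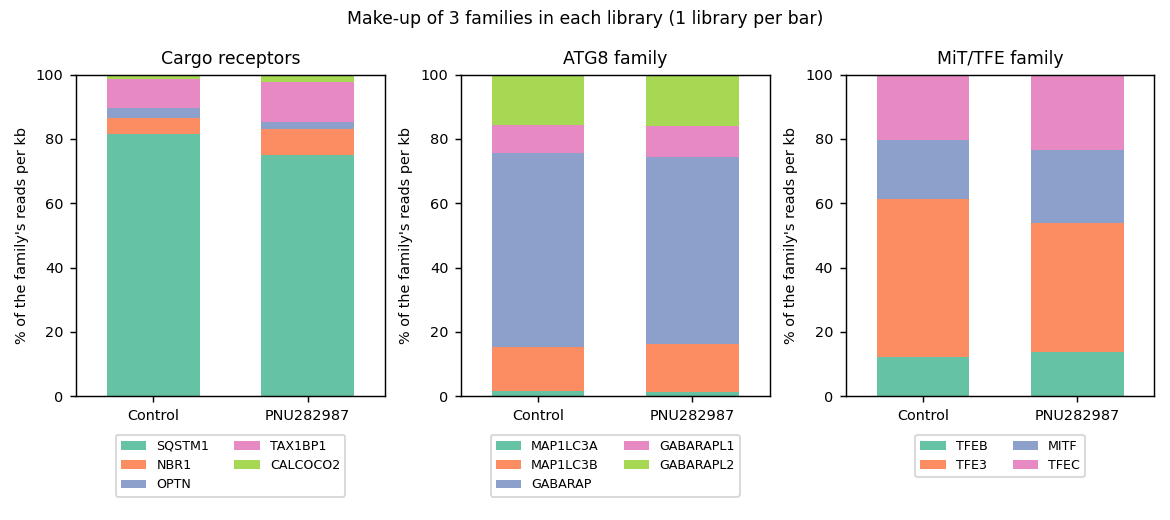
Share of each gene in the reads per kilobase of its family, as stacked bars from 0 to 100%, with 1 library per bar. SQSTM1 takes 81.5% of the cargo receptors in Control against 75.0% in PNU282987, GABARAP leads the ATG8 family in both libraries, and TFE3 takes 49.0% and 40.1% of the MiT/TFE family.

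Enzymes that attach the ATG8 proteins lay on either side of equality. ATG7 (chromosome 3, 11272397 to 11576353), the E1-like enzyme that activates both ATG12 and the ATG8 proteins, had 6086 reads in Control against 4110 in PNU282987, or 156 and 113 CPM. Its log2 ratio was -0.47 (-0.53 to -0.41), and it became -0.21 with the reads of the overlapping gene VGLL4 added, which had 45.1 and 61.4 CPM. ATG10 (chromosome 5, 81972023 to 82256133), the E2-like enzyme for ATG12, was scarce at 9.08 and 6.06 CPM on 354 and 221 reads. Its log2 ratio of -0.58 (-0.83 to -0.34) lay just inside 1.5-fold, and MAP1LC3A and SQSTM1 were the nearest beyond it.

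ATG3, the E2-like enzyme for the ATG8 proteins, had 72.1 CPM in Control against 68.3 CPM in PNU282987 and a log2 ratio of -0.08 (-0.16 to 0.00). ATG12, which forms the E3-like complex with ATG5, had 62.7 and 58.3 CPM. ATG5 had 34.3 and 42.8 CPM, for a log2 ratio of 0.32 (0.21 to 0.43). ATG16L1, which places that complex on the membrane, had 21.7 and 25.9 CPM, for a log2 ratio of 0.25 (0.12 to 0.39). Its paralog ATG16L2 was the most abundant of these genes per kilobase, with 162 and 138 CPM and a log2 ratio of -0.23 (-0.29 to -0.18). The intervals of both ATG16L genes did not overlap; ATG16L2 shares its span with FCHSD2, at 82.0 and 66.5 CPM. The 4 ATG4 proteases, which trim ATG8 proteins before conjugation and release them from membranes, had log2 ratios of -0.21 for ATG4A, -0.25 for ATG4B, -0.35 for ATG4C and 0.11 for ATG4D. ATG4B, the most abundant per kilobase, had 60.6 and 51.0 CPM, and ATG4C 58.8 and 46.2 CPM. The interval of ATG4D alone included equality, at -0.09 to 0.30 on 442 and 445 reads.

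In the ULK complex the kinase ULK1 and the scaffold RB1CC1 lay furthest apart. ULK1 (chromosome 12, 131894622 to 131923150), the kinase that starts autophagy, had 2033 reads in Control against 1305 in PNU282987, or 52.2 CPM (49.9 to 54.5) and 35.8 CPM (33.9 to 37.8). It was 1.46-fold lower, for a log2 ratio of -0.54 (-0.64 to -0.44). ULK2, its paralog, had 24.9 and 23.8 CPM with an interval that included equality (-0.20 to 0.07) and did not overlap that of ULK1. After removal of the trend both intervals lay below equality and overlapped, at -0.52 to -0.31 for ULK1 and -0.34 to -0.07 for ULK2. ULK1 made up 67.7% of the reads of this pair in Control (66.0 to 69.3) and 60.1% in PNU282987 (58.0 to 62.1). RB1CC1, also called FIP200, the scaffold of the complex, had the highest ratio of the 43 genes, at 45.9 CPM in Control against 60.3 CPM in PNU282987, for a log2 ratio of 0.39 (0.30 to 0.48). That rank was lost after removal of the trend. RB1CC1 then stood at 0.12, below ATG101 of the same complex at 0.13 and below ATG9A and TFEB, both at 0.39. ATG13, an adaptor in the complex, had 74.6 and 64.0 CPM and a log2 ratio of -0.22 (-0.30 to -0.14). Its partner ATG101 had 21.9 and 20.3 CPM and a log2 ratio of -0.11 (-0.25 to 0.03).

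Before removal of the trend the class III PI3-kinase complex lay close to equality. BECN1, the beclin 1 subunit, had 63.6 CPM in Control against 62.8 CPM in PNU282987 and a log2 ratio of -0.02 (-0.10 to 0.06). The catalytic subunit PIK3C3 had 41.9 and 44.7 CPM, and ATG14, which directs the complex to autophagosomes, 27.7 and 29.3 CPM. The intervals of these 3 genes included equality, but that of PIK3C3 lay below it after removal of the trend, at -0.32 to -0.12. PIK3R4, the regulatory subunit, had 32.2 and 37.2 CPM, for a log2 ratio of 0.21 (0.10 to 0.32). UVRAG, which replaces ATG14 in the endosomal form of the complex, had 34.0 and 30.7 CPM. RUBCN, or Rubicon, an inhibitor of the complex in autophagy that is needed for LC3-associated phagocytosis, had 49.0 and 38.5 CPM, for a log2 ratio of -0.35 (-0.45 to -0.25). That direction is uncertain, since the ratio became 0.09 with the reads of FYTTD1 added, an overlapping gene with 78.2 and 96.5 CPM. The median log2 ratio of the 6 genes was 0.03, and -0.14 after removal of the trend. In that case 5 of the 6 genes (83.3%) had a ratio under 1, against 50.7% of all loci.

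Among the genes that supply and shape the membrane, 3 of 5 had intervals above equality, as did 33.5% of all loci, and 2 of 5 after removal of the trend, which left out ATG2B (-0.07 to 0.14). ATG9A, a lipid scramblase carried on small vesicles, had 43.6 CPM in Control against 53.2 CPM in PNU282987, for a log2 ratio of 0.29 (0.19 to 0.38). Of the lipid transfer proteins, ATG2B had 35.5 and 44.0 CPM and ATG2A 30.3 and 28.2 CPM. Of the WIPI proteins, which read the phosphoinositide mark, WIPI1 had 32.6 and 37.4 CPM and WIPI2 84.1 and 76.3 CPM. The intervals of the paralogs did not overlap in either pair, at 0.21 to 0.42 for ATG2B against -0.22 to 0.02 for ATG2A and 0.09 to 0.31 for WIPI1 against -0.21 to -0.07 for WIPI2.

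**Figure D3:**
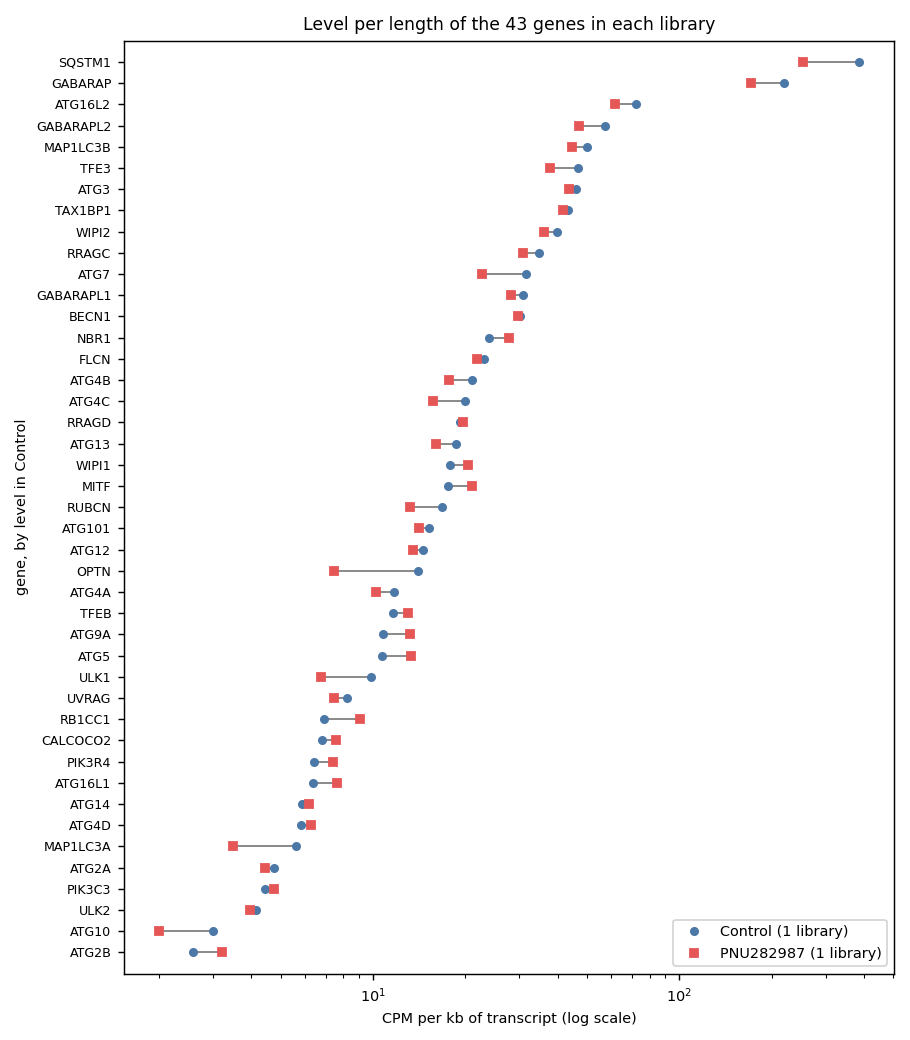
Level of each of the 43 genes in CPM per kilobase of transcript, on a log axis, in the Control library (circles) and the PNU282987 library (squares), ordered by Control. SQSTM1 stands at 387 and 254 and GABARAP at 220 and 171, while ATG2B and ATG10 lie at the bottom.

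Levels of different genes were compared per kilobase of transcript. SQSTM1 was the highest of the 43 genes in both libraries, at 387 and 254 CPM per kilobase, followed by GABARAP at 220 and 171, ATG16L2 at 72.4 and 61.5, GABARAPL2 at 57.0 and 47.0 and MAP1LC3B at 49.9 and 44.6. The same 10 genes held the first 10 places in both libraries, and the others of these were TFE3, ATG3, TAX1BP1, WIPI2 and RRAGC. The lowest were ATG2B at 2.59 and 3.21 and ATG10 at 3.0 and 2.0 CPM per kilobase. OPTN stood in place 25 in Control and in place 32 in PNU282987. The 43 genes together took 0.396% of all reads in Control against 0.339% in PNU282987, and SQSTM1 alone took 28.9% and 22.6% of these. The summed level of the other 42 genes was 2844 CPM in Control against 2603 CPM in PNU282987.

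The members of the TFEB family differed in direction. TFE3, per kilobase the most abundant of the family here, had 6197 reads in Control against 4703 in PNU282987, or 159 CPM (155 to 163) and 129 CPM (125 to 133), for a log2 ratio of -0.30 (-0.36 to -0.25). MITF, known as the regulator of pigment cells and also active in macrophages and osteoclasts, had 3281 and 3711 reads, or 84.2 and 102 CPM, for a log2 ratio of 0.27 (0.21 to 0.34). TFEB itself had 1064 and 1116 reads, or 27.3 CPM (25.7 to 29) and 30.6 CPM (28.8 to 32.5), for a log2 ratio of 0.16 (0.04 to 0.29). TFEC, the remaining member of the family and not among the 43 genes, had 128 and 147 CPM, for a log2 ratio of 0.20 (0.15 to 0.26). TFE3 was thus lower and the 3 others higher in the PNU282987 library, all within 1.25-fold, but TFEC stood at -0.14 and MITF at 0.10 after removal of the trend. TFE3 made up 39.9% of the family's reads in Control against 31.6% in PNU282987. MITF is transcribed from several promoters, and its 13 listed transcripts were counted together.

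The genes that hold these factors in the cytoplasm were close to equality. RRAGC and RRAGD, Rag GTPases that bring TFEB to the lysosome, had 94.9 and 93.9 CPM in Control against 84.1 and 96.0 CPM in PNU282987. The log2 ratio of RRAGC was -0.17 (-0.24 to -0.10) and that of RRAGD 0.03 (-0.04 to 0.10), without overlap of the intervals. After removal of the trend both lay below equality and overlapped, at -0.30 to -0.16 and -0.21 to -0.07. FLCN, folliculin, which activates RRAGC and RRAGD by acting on their GTP, had 84.1 and 79.2 CPM, for a log2 ratio of -0.09 (-0.16 to -0.01).

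The TFEB family binds the letters CACGTG, in the longer form TCACGTGA, which make up the core of the CLEAR element of lysosomal genes. Both are palindromes, and each TCACGTGA also counts as a CACGTG. They were searched in RefSeq promoter windows of GRCh38.p14, from 250 bases before to 50 bases after the annotated start, which were at hand for 38 of the 43 genes; the other 5 were RB1CC1, UVRAG, ATG4D, MAP1LC3A and RRAGD. Of these 38 windows 3 held CACGTG, or 7.89%, against 7.26% of all 35116 windows, and 1 held TCACGTGA (2.63% against 0.980%). Of the 15 windows matched for the 30 lysosomal TFEB targets, a list known in part for these letters, 9 held CACGTG and 4 held TCACGTGA. A match describes the letters only.

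The matches of the 43 genes are shown first, with the CACGTG or TCACGTGA in capitals and the rest in lower case, 5′ to 3′ on the gene's strand, and below them the 4 lysosomal windows with TCACGTGA for comparison. The RRAGC site lies on the minus strand at chr1:38859867-38859896, 112 bases upstream of the start, and that of ATG14 on the minus strand at chr14:55411834-55411863, 21 bases upstream. ATG3 has a site 18 bases upstream (chr3:112561963-112561992, minus strand) and another 6 bases downstream (chr3:112561940-112561969). The lysosomal sites are at chr13:113297199-113297228 (LAMP1, plus strand), chr16:67481199-67481228 (ATP6V0D1, minus strand), chr17:80101493-80101522 (GAA, plus strand) and chr20:45891298-45891327 (CTSA, plus strand).
RRAGC: aggtgattccggCACGTGacggggcaccac
ATG14: aaaacaaaatccCACGTGactggctctcct
ATG3, upstream: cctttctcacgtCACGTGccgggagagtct
ATG3, downstream: agagtctagtgTCACGTGAggccccggtgg
LAMP1: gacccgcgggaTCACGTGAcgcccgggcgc
ATP6V0D1: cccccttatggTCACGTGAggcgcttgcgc
GAA: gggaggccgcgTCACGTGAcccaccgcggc
CTSA: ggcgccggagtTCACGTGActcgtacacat

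The log2 ratios were -0.17 for RRAGC, 0.08 for ATG14 and -0.08 for ATG3, a median of -0.08, and the median of the other 35 genes with a window was -0.11, with a range of -0.91 to 0.32. None of the 30 lysosomal targets was past 1.5-fold, against 17.4% of all loci and 12.5% of those at 10 CPM or more. The median log2 ratio of the targets was -0.20, and 22 of 30 had a ratio under 1 (73.3%), against 50.8% of all loci. Among these the protease CTSB had 12423 CPM in Control against 12502 CPM in PNU282987, and the protease CTSD 7562 and 5895 CPM. After removal of that trend the median of the lysosomal targets was -0.11.

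Other genes of the pathway were counted in 8 lists of 146 genes in all, of which 139 averaged 1 CPM or more. Of these, 1 was at least 2-fold higher and 2 were at least 2-fold lower, together 2.16%, against 5.77% of all loci (2.96% higher and 2.81% lower). At 1.5-fold 8 were higher and 3 lower, together 7.91%, against 17.4% of all loci (8.77% higher and 8.66% lower). Of the 130 list genes at 10 CPM or more, 2 were past 2-fold and 9 past 1.5-fold. The shares of all loci at that level were 3.30% and 12.5%. RILP, which ties RAB7 on late endosomes and lysosomes to the dynein motor, had 613 reads in Control against 160 in PNU282987, or 15.7 and 4.39 CPM, for a log2 ratio of -1.84 (-2.10 to -1.59). DEPTOR, an inhibitor of mTOR, was 2.48-fold lower, at 6.47 and 2.61 CPM. NCF1, the p47 subunit of the NADPH oxidase that LC3-associated phagocytosis needs, was 3.91-fold higher, at 23.7 and 92.8 CPM. NCF1 has near-identical pseudogene copies, NCF1B with 506 and 1800 reads and NCF1C with 653 and 2205, so the division of reads between the 3 loci is uncertain, though each held more reads in PNU282987.

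Past 1.5-fold were 12.9% of the mTORC1 and nutrient sensing list, 11.1% of the AMPK list and 8.33% of the list of other transcription regulators. The share was 17.4% of all loci and 12.5% of those at 10 CPM or more. PRKAA1 encodes a catalytic subunit of AMPK, the kinase that activates ULK1. It had 56.9 CPM in Control against 105 CPM in PNU282987, for a log2 ratio of 0.88 (0.80 to 0.96). After removal of the GC and length trend PRKAA1 stood at 0.61 (0.53 to 0.68), an interval that reaches within 1.5-fold. FOXO3, a transcription factor with autophagy genes among its targets, had 80.4 and 149 CPM, for a log2 ratio of 0.89 (0.82 to 0.95). With that trend removed FOXO3 stood at 0.76. FNIP2, a partner of FLCN, had 187 and 283 CPM, for a log2 ratio of 0.59 (0.55 to 0.64), and 0.39 after removal of that trend, which is within 1.5-fold. TBC1D7, a subunit of the TSC complex that restrains mTORC1, was 1.68-fold lower, and within 1.5-fold at a log2 ratio of -0.57 with overlapping loci added. SEH1L, a GATOR2 subunit named here after its values were seen, was 1.54-fold higher. TGM2 (52.0 and 93.5 CPM) and TP53INP2 (21.1 and 32.4 CPM), which recruits ATG8 proteins, were also past 1.5-fold. In the list of mitophagy and other selective receptors none of 17 genes was past 1.5-fold, against those same shares of 17.4% and 12.5%. The most abundant of this list were the ferritin receptor NCOA4, at 556 and 600 CPM, and the endoplasmic reticulum receptor RTN3, at 213 and 176 CPM.

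**Figure D4:**
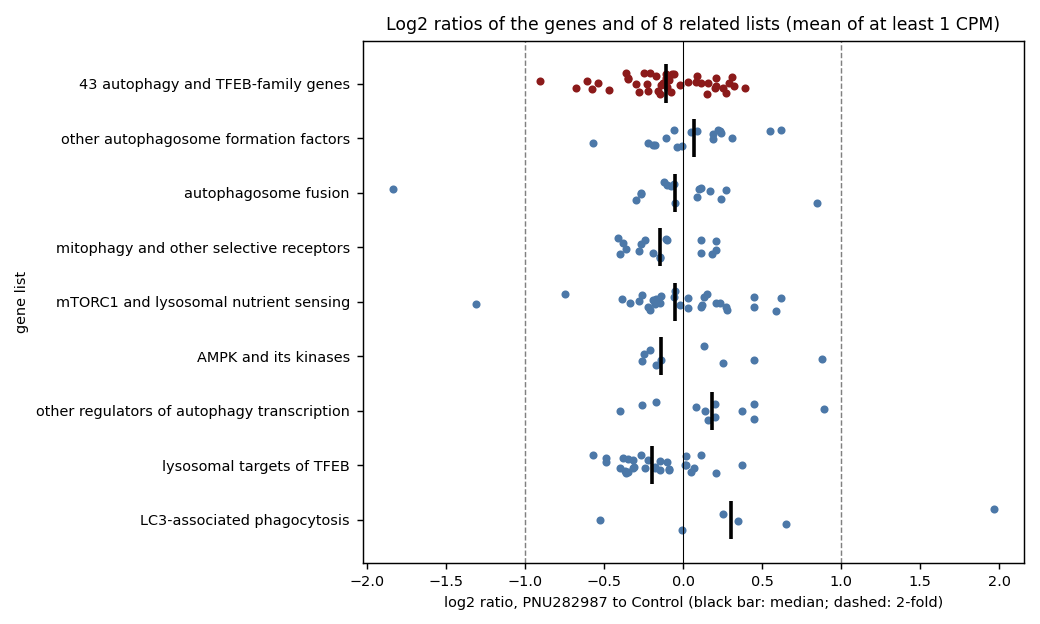
Log2 ratio of PNU282987 to Control for the 43 genes and for 8 lists of related genes, 1 point per gene and a black bar at the median. The 43 genes span -0.91 to 0.39, inside the dashed 2-fold lines, and RILP, DEPTOR and NCF1 are the points outside them.

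The ratios of all loci trended with sequence composition. Over the 13172 loci with a known length and GC content, the log2 ratio declined by 0.140 for each 10 percentage points of GC and was 0.0935 higher for each doubling of transcript length. Once that trend was removed, 26 of the 43 ratios moved outside their counting interval. The log2 ratio of OPTN was then -1.0, just short of 2-fold, and that of ATG10 -0.68. SQSTM1 was then at -0.49 and MAP1LC3A at -0.38, both within 1.5-fold, so their calls depended on this correction. Among the higher genes RB1CC1 stood at 0.12, ATG5 at 0.16, NBR1 at 0.09, PIK3R4 at 0.06, CALCOCO2 at 0.05, ATG4D at 0.38 and TFEB at 0.39. Among the lower genes TFE3 stood at -0.18, ATG4B at -0.11, FLCN at -0.02, ATG3 at -0.01 and ATG16L2 at -0.01, nearer to equality. ATG4C at -0.55, ATG12 at -0.32, UVRAG at -0.23 and TAX1BP1 at -0.20 lay farther from it. ATG101 (0.13), PIK3C3 (-0.22), ATG14 (-0.05) and RRAGD (-0.14) crossed equality. The difference between ATG2B and ATG2A was nearly gone, at 0.03 and -0.00, while WIPI1 and WIPI2 stood at 0.24 and -0.01. Of the 43 genes 30 then had a ratio under 1, or 69.8% against 50.7% of all loci, and the median stayed at -0.11. Reads of overlapping loci were also added for the 19 genes that share their span with another locus. ATG4A was then at -0.10 instead of -0.21 and ATG4D at 0.21 instead of 0.11. ATG14 was at 0.16 instead of 0.08 and WIPI1 at 0.13 instead of 0.20. Each of these stayed inside its counting interval. For WIPI1 most of the added reads were those of PRKAR1A, 12060 and 12100 against 1272 and 1365 of its own. For ATG4A the added reads were those of PSMD10, 2716 and 2426 against 1060 and 859. Such sums mostly follow the other locus, so they cannot show that the ratio of the gene itself holds.

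**Figure D5:**
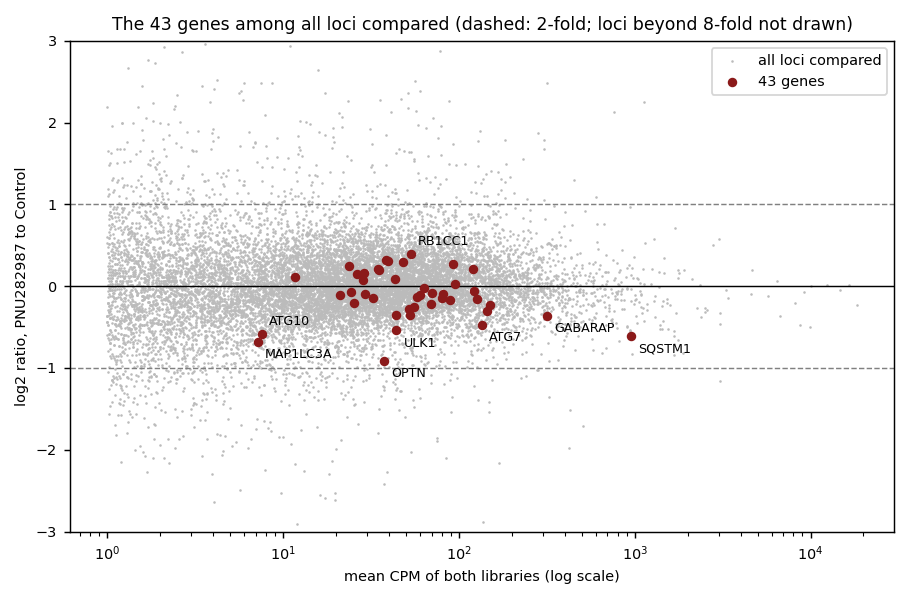
Log2 ratio of PNU282987 to Control against the mean CPM of both libraries (log axis) for all loci compared (grey) and the 43 genes (red). SQSTM1, at a mean above that of 99.4% of the compared loci, and OPTN, at -0.91, stand apart from the other red points.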

How the data were processed

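Both libraries were measured by stranded mRNA sequencing, and the deposited values are unnormalized read counts for each locus, per the file headers. The submitters' processing notes name GRCh38, HISAT2 2.1.0, StringTie 2.1.3b, edgeR, Trimmomatic 0.38 and FastQC 0.11.7; how mates, multi-mapping reads and strand were treated in counting is not given in the sources used here, so overlapping loci are uncertain.

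Totals were scaled with TMM factors (edgeR 4.0.16, R 4.3.3) of 0.991 for Control and 1.01 for PNU282987, and CPM and ratios were computed from the scaled totals. A floor of 3 reads was 0.077 and 0.0823 CPM, which stood in for 0 reads. Ratios carry exact 95% Clopper-Pearson counting intervals. A locus was called at a ratio of at least 2-fold or 1.5-fold, with an interval that leaves out 1 and a mean of at least 1 CPM. All loci were compared and the 43 genes read from that table. With 1 library per group edgeR's test could not be made. Positions are from RefSeq (GRCh38.p14). Length and GC content are from GENCODE transcripts (GRCh38), for the longest principal transcript. In the lists 1 symbol was matched by gene identifier. Some list genes are counted but not reported here by name. The rule was tested on simulated counts with counting error only. They held no spread between cultures, so the simulation cannot show how the rule fares against such spread. Alternatives used DESeq2 1.42.0 size factors and other settings given at the end. Python 3.11.15, pandas 2.3.3, SciPy 1.17.1 and matplotlib 3.10.9 were used. The genes and lists were chosen with earlier results of these data known. All 43 genes are reported, with fuller values for those past 1.5-fold and the 2 most abundant per kilobase of each role; further values for others, such as ULK1, were chosen after they were seen. From each list the text names up to 4 genes past 2-fold, up to 2 past 1.5-fold where fewer than 2 passed, and otherwise the 2 most expressed, and it adds TFEC.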

Additional observations from a re-analysis of the deposited data

How the results depend on the processing

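None of the 43 genes was called at 2-fold under the 11 alternatives tried. Some of these could not have added such a call among the 43 genes. The filters on CPM, reads and overlap kept the same ratios, and a whole interval beyond 2-fold is a stricter rule. At 1.5-fold 3 were called, 2 with library totals in place of TMM (SQSTM1 was lost), 2 with a mean of at least 10 CPM (MAP1LC3A falls below that level), 2 after removal of the GC and length trend (OPTN and ATG10), 1 over the 24 genes with no overlapping locus (MAP1LC3A), and 4, with ATG10 added, under upper-quartile factors, DESeq2 size factors, halved counts or thinning of Control to the smaller total. OPTN was called in each of these where it was included. The median of the 43 genes ranged from -0.12 to -0.08. Signs of the ratio differed for ATG101, PIK3C3, ATG14 and RRAGD with the trend removed, for RUBCN with overlapping loci added and for BECN1 with library totals, none of them called genes. Of the related lists 3 genes were called at 2-fold and 5 with at least 10 reads in place of the CPM filter, which adds genes with few reads, such as PRKAA2 with 13 and 36; at 1.5-fold 11 were called and 7 over loci with no overlap, where fewer genes are compared. Over all loci the 2-fold count was 824, 322 with at least 10 CPM, 1829 with at least 10 reads and 376 over loci with no overlap. Of the 10 genes highest per kilobase 7 remained with genomic span or with no length scaling. Leaving out a library is not possible. No paired analysis was possible because each group has 1 library and no test was made.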
